A study of Homo sapiens with 6 samples.

Results

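The genes described here are 9 transcripts of a cancer progression panel that encode actin-binding proteins, parts of the contractile apparatus, or components of the Hippo pathway. They are GSN, ADD1, MYLK, FHL1, ACTG2, CNN1, MYH11, WWTR1 and NF2, taken by row name from a table of 770 genes. They were chosen by their normalized counts in the line comparison below, so their differences between lines are given as a description and without a test. Both groups were untreated A375 cells, a human malignant melanoma line with the activating BRAF mutation V600E, grown in serum-containing medium. The 3 samples of the first group were NRAS wild type, and the 3 samples of the second were from an isogenic line that also carries NRAS Q61K, an activating change in the small GTPase NRAS. Per the catalogue names, both lines also carry a luciferase reporter, so neither group is the unmodified parent. Cells were taken no more than 5 population doublings after thawing, and total RNA was read with the NanoString nCounter assay, which counts fluorescent barcodes hybridized to each transcript without amplification. The labels do not say whether the mutant line is 1 clone or whether samples of a line came from separate cultures, so the spread given below may be technical.

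Actin filaments grow and shrink at their ends and are cut, capped and bundled by binding proteins, and they contract where myosin slides along them after its light chain is phosphorylated. Many genes of this machinery are switched on by serum response factor, SRF, which binds the CArG box in their promoters together with actin-sensing coactivators. In the Hippo pathway, the membrane-linked protein merlin, encoded by NF2, promotes a kinase cascade that keeps the coactivators YAP and TAZ out of the nucleus, where they would otherwise work with TEAD factors. WWTR1 encodes TAZ, and both arms respond to actin tension in many adherent cell types.

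Promoter sequences are shown for the members that hold a CArG box, the SRF site named above, upstream of a transcription start. The search covered 250 bases before to 50 after each start in RefSeq's entries on GRCh38.p14, which had entries for 8 of the 9 members. A CArG box is a run of 6 A or T bases between CC and GG, and its pattern reads the same on both strands. Capitals mark the box, and the sequences run 5′ to 3′ on the strand of the gene. MYLK has 1 entry, with a box 94 bases before the start (chr3:123620613-123620662, minus strand). Which of the gene's transcripts starts there, the kinase or the short kinase-free product, was not determined. Neither this box nor any other motif in the entry is therefore ascribed to the kinase transcript. FHL1 has 12 entries, 1 of which holds a box, 126 bases before that start (chrX:136196901-136196950, plus strand). ACTG2 has 1 entry with 2 boxes, 110 and 73 bases before the start (chr2:73892878-73892964, plus strand).
MYLK: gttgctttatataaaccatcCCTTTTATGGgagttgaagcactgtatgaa
FHL1: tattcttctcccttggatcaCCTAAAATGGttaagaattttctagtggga
ACTG2: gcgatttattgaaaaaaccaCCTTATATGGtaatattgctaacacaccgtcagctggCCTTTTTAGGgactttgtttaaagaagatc
Among all 35116 promoter entries, 1.29% held a CArG box, and among the 855 entries of panel genes 2.11% did. These shares are per entry, while FHL1 is counted from 1 of its 12 entries. The entries of GSN, ADD1, CNN1, WWTR1 and NF2 held none in this window. The TEAD motif GGAATG, searched on both strands as GGAATG or CATTCC, was in the MYLK entry and in 1 FHL1 entry. The motif was in 14.0% of all entries and in 13.2% of those of panel genes. It overlapped no CArG box in these members. Of the 3 members with a box, 1 was lower and 1 higher in NRAS Q61K cells, as given below. The other was at the table's minimum in 5 of 6 samples. Among the other contractile genes described below, SRF held a box in 1 of its 2 entries, and CALD1, CAV1 and TPM2 held none. Whether a box bears on any of these levels was not tested. Whether the counted transcripts begin at the starts with a box was not determined.

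Summed gene counts after background subtraction, before scaling between samples, were 1224146 to 1264654 in wild-type and 1158506 to 1189613 in NRAS Q61K samples. Of 740 endogenous genes 454 were above a detection floor of 129.7 normalized counts, set from the negative control probes, and were tested. Across the tested genes the log2 difference (NRAS Q61K minus wild type) had a median of 0.32 as deposited, and between -0.13 and 0.04 under 4 other scalings between samples. The deposited values set the housekeeping genes equal, and before scaling their geometric mean ranged from 808 to 814 in the wild-type line and from 627 to 661 in the NRAS Q61K line. Differences are therefore given as deposited and, for each member, also over the other 4 scalings. The NRAS and BRAF transcripts were not analysed here, and no check of the genotype labels was made. The melanocyte lineage list had rows under the listed symbols for only 3 of its 11 genes. These were ERBB3, MCAM and SOX9, all above the floor in both lines. All 3 were called higher in NRAS Q61K under all 5 scalings (limma), and their summed level was 2138 to 2146 normalized counts in wild-type and 4142 to 4561 in NRAS Q61K samples. Their part in the members' values was not tested.

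Of the 9 members 6 were above the floor in both lines and 3 were not in either. In all 6 the lines did not overlap, with 4 genes higher and 2 lower in NRAS Q61K. The same held for 84.1% of all tested genes, namely 63.0% higher and 21.1% lower. Of the 6, 3 were at least 2-fold higher and 2 at least 2-fold lower on the deposited scale, against 18.5% and 4.63% of tested genes. Since the same contrast chose the members, nothing is read from these counts. RNA was taken from whole cultures, so a change in the share of cells that express a gene and a change in RNA per cell cannot be told apart.

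**Figure D1:**
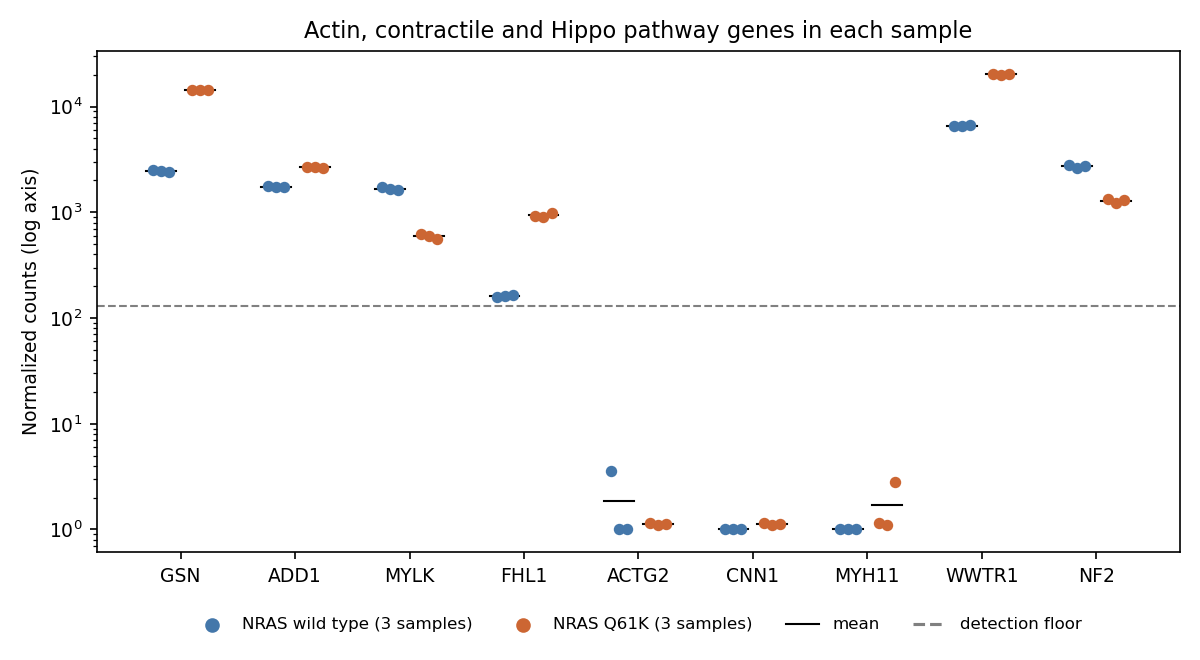
Normalized counts (log axis) of the 9 genes in each of the 3 NRAS wild-type and 3 NRAS Q61K samples, with the group mean as a bar and the detection floor of 129.7 dashed. GSN, ADD1, FHL1 and WWTR1 are higher and MYLK and NF2 lower in every NRAS Q61K sample, and ACTG2, CNN1 and MYH11 lie near the table's minimum in both lines.

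The actin-binding members were both higher in NRAS Q61K cells. GSN encodes gelsolin, a calcium-regulated protein that severs actin filaments and caps their fast-growing end. Wild-type samples had 2531, 2461 and 2406 normalized counts, against 14335, 14317 and 14425 in NRAS Q61K samples. The samples of each line lay close together, and the lowest NRAS Q61K sample was 5.66-fold above the highest wild-type sample. The means were 2466 ± 62.4 and 14359 ± 57.9 (SD, n = 3 each), a log2 difference of 2.54 with a standard error of 0.021, or 5.82-fold. Under the other 4 scalings the fold was 4.26 to 4.79.

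ADD1 encodes the alpha subunit of adducin, which caps actin filaments and joins them to the spectrin network under the membrane. It had 1757, 1750.1 and 1719.6 normalized counts in the wild-type line and 2685, 2671 and 2650.1 in NRAS Q61K samples. The lines were separate by more than the spread within either, with means of 1742 ± 19.8 and 2669 ± 17.5 (SD, n = 3 each). The fold of 1.53 was the smallest among the 6 members above the floor. Apart from quantile normalization, the other scalings moved all 6 members by similar amounts on the log2 scale. Such a move is a larger share of a small difference. Under quantile normalization the moves were less alike, with WWTR1 at 1.42 and MYLK at -1.95 against 1.61 and -1.50 as deposited. The log2 difference of ADD1, 0.62 as deposited, became 0.16 to 0.33 under the other 4, which is 1.12-fold to 1.26-fold. Its direction held under each of them.

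Among the contractile members, MYLK was lower, FHL1 was higher and the smooth muscle genes were not detected. MYLK encodes myosin light chain kinase, the calcium and calmodulin-dependent enzyme that phosphorylates the regulatory light chain of myosin. The wild-type samples had 1732, 1652 and 1636 normalized counts, and the NRAS Q61K samples had 621, 601 and 557. All NRAS Q61K samples were below all wild-type samples, the nearest pair being 2.63-fold apart. The means of 1673 ± 51.2 and 593 ± 32.7 (SD, n = 3 each) gave a log2 difference of -1.50 with a standard error of 0.053, or 2.82-fold lower. The other 4 scalings gave 3.43-fold to 3.88-fold lower. MYLK has long kinase isoforms and a short kinase-free product made from the end of the same gene, and the table has 1 row for the gene, so these were not separated.

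FHL1 encodes a LIM-domain protein that is abundant in skeletal and heart muscle and binds sarcomere and signalling proteins. It had 157, 161 and 165 normalized counts in wild-type samples, just above the floor, and 924, 904 and 975 in NRAS Q61K samples. Each NRAS Q61K sample was at least 5.47-fold above the highest wild-type sample. The means were 161 ± 4.11 and 934 ± 36.6 (SD, n = 3 each), a log2 difference of 2.53 with a standard error of 0.039. The fold was 5.76 as deposited and 4.20 to 4.74 under the other 4 scalings. Adding 20 in place of 1 before taking logs lowered the log2 difference to 2.40, since the wild-type level was low.

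ACTG2, CNN1 and MYH11, which encode smooth muscle gamma actin, basic calponin and smooth muscle myosin heavy chain, are defining genes of differentiated smooth muscle. CNN1 was at the lowest value of its sample in 6 of 6 samples, which was 1 in wild-type and 1.11 to 1.16 in NRAS Q61K samples, where the minimum had been multiplied by the scaling factor. ACTG2 was at that minimum in 5 of 6 samples and had 3.59 normalized counts in wild-type replicate 1. MYH11 was also at the minimum in 5 of 6 samples, with 2.80 in NRAS Q61K replicate 3. All of these values are far below the floor of 129.7, so no fold or direction is given for the 3 genes, and a level below the floor was not measurable in either line. The higher levels of GSN and FHL1 therefore stood beside smooth muscle genes that were not detected in any sample.

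The Hippo pathway members differed in opposite directions. WWTR1, which encodes the coactivator TAZ, had 6579, 6576 and 6658 normalized counts in wild-type samples and 20546, 19952 and 20152 in NRAS Q61K samples. No sample of one line came near the other, with the closest pair 3.00-fold apart. The means were 6604 ± 46.7 and 20217 ± 302 (SD, n = 3 each), a log2 difference of 1.61 with a standard error of 0.014, or 3.06-fold higher. It was 2.24-fold to 2.68-fold higher under the other 4 scalings.

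NF2, which encodes the tumour suppressor merlin, had 2813, 2645 and 2715 normalized counts in wild-type samples and 1324, 1237 and 1319 in NRAS Q61K samples. The nearest samples of the lines were 1.998-fold apart. The means of 2724 ± 84.7 and 1293 ± 48.8 (SD, n = 3 each) gave a log2 difference of -1.07 with a standard error of 0.041, or 2.11-fold lower, and 2.56-fold to 2.88-fold lower under the other 4 scalings. Counted from the lowest log2 difference, NF2 was number 20 and MYLK number 13 of 454 tested genes. These are transcript levels, and neither the phosphorylation nor the location of TAZ was measured.

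A ratio of a pair of genes within a sample does not depend on the factor that scales the sample. The log2 ratio of WWTR1 to NF2 was 1.28 ± 0.046 in wild-type and 3.97 ± 0.040 in NRAS Q61K samples (SD, n = 3 each), so the ratio was 6.45-fold higher in the mutant line. The log2 ratio of GSN to MYLK was 0.56 ± 0.014 and 4.60 ± 0.085, a 16.4-fold shift of the ratio. The ratio of GSN to ADD1, both of which were higher, shifted by 3.80-fold. The shift between lines is the quantity given, since the level of a ratio also depends on how well each probe binds. The pairs were picked with the members' differences known. Each shift follows from the differences of both genes given above, so it is no separate evidence.

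**Figure D2:**
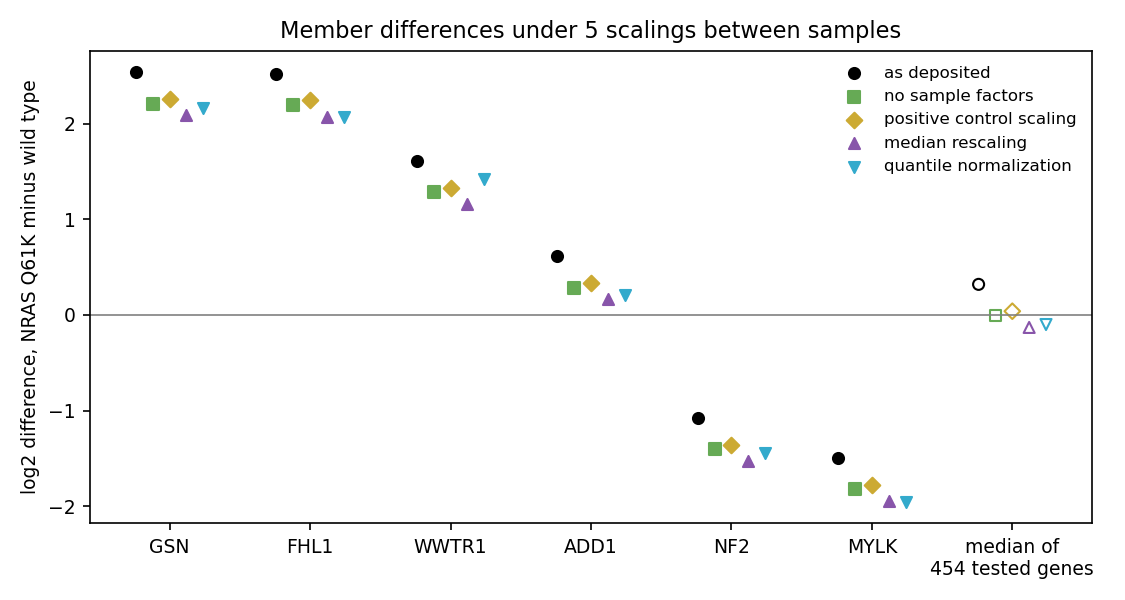
Log2 difference (NRAS Q61K minus wild type, means of 3 samples each) of the 6 genes above the floor under the deposited scaling and 4 others, with the median of the 454 tested genes as open symbols. Each gene keeps its sign under all 5, from 2.54 as deposited for GSN to -1.50 for MYLK, while ADD1 goes from 0.62 to as little as 0.16.

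The members' places among all tested genes were wide apart. Counted from the highest log2 difference, GSN, FHL1, WWTR1 and ADD1 were numbers 19, 20, 50 and 144 of 454. Over the 6 samples, the profile nearest to that of GSN, by Euclidean distance of the log2 values about each gene's mean, was that of COL6A1, a beaded-filament collagen chain, at a distance of 0.109. FHL1 was next at 0.127, followed by TNC, the matrix glycoprotein tenascin C, at 0.130. The profile nearest to that of MYLK was that of SLC2A1, a glucose transporter gene, at 0.134, with log2 differences of -1.57 and -1.50. SPP1, encoding osteopontin, and HK2, encoding a hexokinase, followed at 0.367 and 0.426. With 2 lines, such a distance mostly compares the size of 1 difference between lines.

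**Figure D3:**
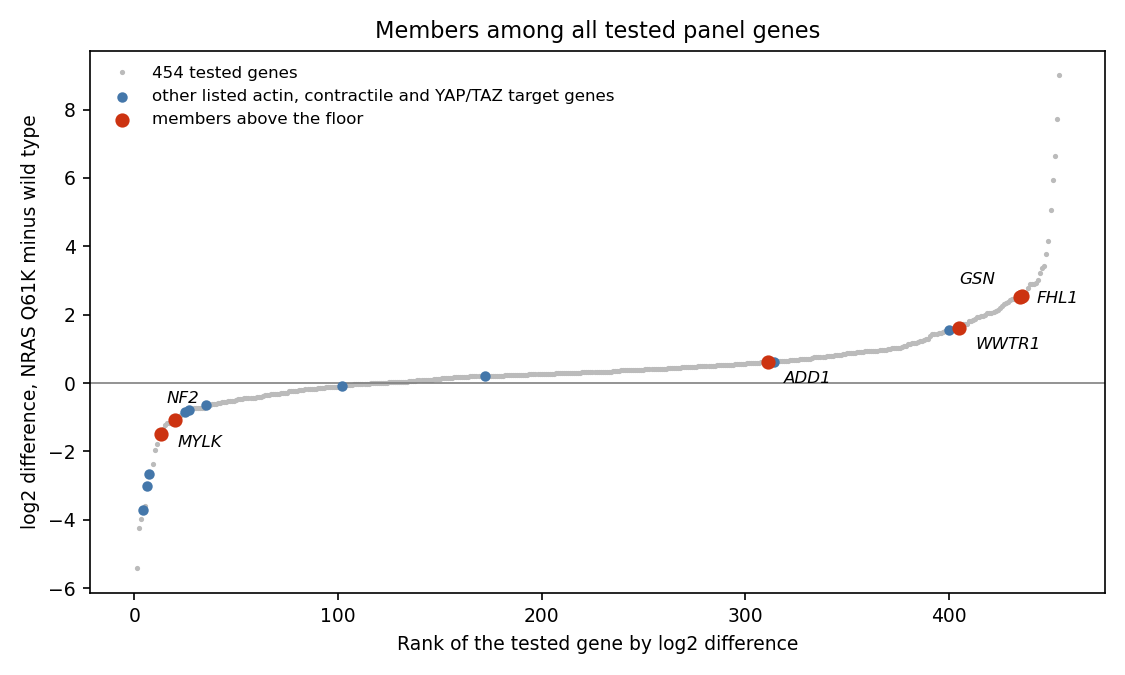
Log2 difference (NRAS Q61K minus wild type) of the 454 tested genes in rank order from the deepest fall to the highest rise, with the 6 members above the floor in red and the other listed genes in blue. GSN and FHL1 lie together at 2.54 and 2.53, WWTR1 at 1.61, ADD1 at 0.62, and NF2 and MYLK at -1.07 and -1.50.

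Other genes of the same machinery were taken from further lists, and 10 of them are described here, each with an average over the 6 samples above the floor. They were tested in the fit of all 454 genes with limma, in which 83.0% of genes passed at an adjusted p under 0.05, 62.1% higher and 20.9% lower in NRAS Q61K. The actin filament list had rows for 2 of its 53 genes, and they went in opposite directions under all 5 scalings. WIPF1, encoding a partner of the WASP family that promotes actin branching, had 890, 833 and 825 normalized counts in wild-type and 2434, 2538 and 2428 in NRAS Q61K samples. It was 2.90-fold higher (log2 difference 1.54, limma adjusted p = 2.72e-07), with no overlap between the lines. MISP, encoding an actin-bundling protein that acts at the mitotic spindle, had 315, 339 and 337 counts in wild-type and 21.9, 19.8 and 31.9 in NRAS Q61K samples. The latter are below the floor, so MISP was at least 2.55-fold lower (limma adjusted p = 2.55e-06).

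The contractile list had rows for 4 of its 37 genes. CALD1 and TPM2 were higher, CAV1 was lower and SRF did not pass, and the list's median log2 difference was 0.06 against 0.32 over all tested genes. CALD1 encodes caldesmon, which binds actin and restrains myosin, and had 2094, 1981 and 2092 normalized counts in wild-type and 3313, 3153 and 3049 in NRAS Q61K samples. It was 1.54-fold higher (limma adjusted p = 1.97e-05) and was called higher under all 5 scalings. TPM2, which encodes a tropomyosin that lies along the actin filament, was 1.15-fold higher as deposited (5851 ± 112 and 6739 ± 145, SD, n = 3 each, limma adjusted p = 0.00113), but its direction turned under the other 4 scalings. CAV1, encoding the caveolar coat protein caveolin 1, had 4093, 4090 and 4019 counts in wild-type and 2585, 2614 and 2536 in NRAS Q61K samples. It was 1.58-fold lower under the deposited scaling (limma adjusted p = 1.92e-06) and was called lower under the other 4. SRF had 727, 708 and 706 counts in wild-type and 695, 677 and 640 in NRAS Q61K samples. It did not pass as deposited (log2 difference -0.09, limma adjusted p = 0.0741), but it was called lower under the other 4 scalings, where its log2 difference was -0.37 to -0.57. Without NRAS Q61K replicate 1 it also passed (log2 difference -0.12, limma adjusted p = 0.0398), and its adjusted p over all alternatives ranged from 3.64e-06 to 0.172.

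None of the 26 listed Hippo pathway genes other than the members had an endogenous row under its listed symbol. Of listed genes known to respond to YAP and TAZ, results are given for F3, TGFB2, THBS1 and AREG only, and no count over the list is given because other members are not reported here. THBS1 and AREG are known targets of several other pathways too, and their falls were known when the list was drawn up. F3, encoding tissue factor, had 722, 689 and 694 counts in wild-type and 404, 382 and 373 in NRAS Q61K samples and was 1.81-fold lower (limma adjusted p = 3.19e-06). TGFB2, a ligand of the TGF-beta family, had 171, 209 and 172 counts in wild-type and 110.1, 104 and 106 in NRAS Q61K samples. The latter are below the floor, so TGFB2 was at least 1.42-fold lower (limma adjusted p = 0.000181). THBS1, encoding thrombospondin 1, was 6.38-fold lower (limma adjusted p = 2.21e-08), and AREG, encoding amphiregulin, at least 6.28-fold lower (limma adjusted p = 1.19e-07). These 4 genes were called lower under all 5 scalings, and since the list is given in part they show no direction for the targets as a whole.

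**Figure D4:**
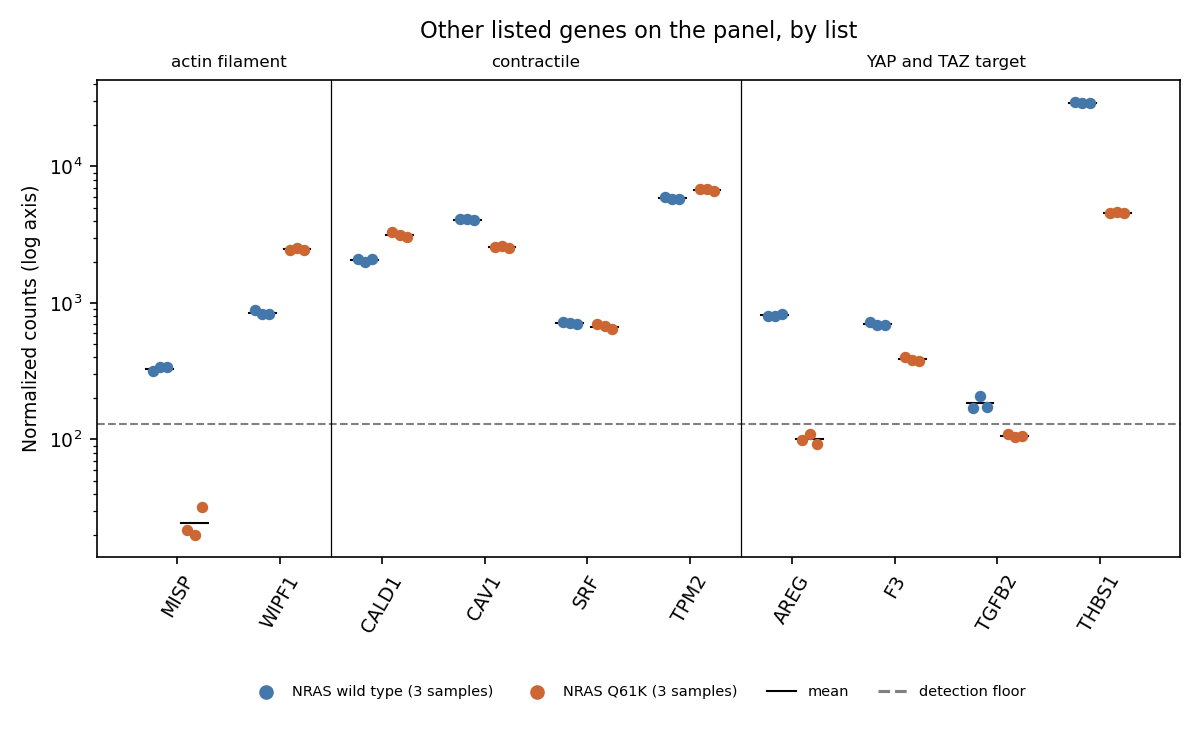
Normalized counts (log axis) of the 10 other genes described, in each of the 3 samples per line, with group means as bars and the floor of 129.7 dashed. The lines are far apart for MISP, WIPF1, AREG and THBS1 and close together for SRF and TPM2, and the direction for TPM2 turns under the other 4 scalings.

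Markers of other cell types were read beside these values. Of the fibroblast and mural markers 9 of 14 had rows, and their summed level was 615 to 645 normalized counts in wild-type and 1599 to 1841 in NRAS Q61K samples. LUM averaged 93.8 normalized counts in wild-type and 463 in NRAS Q61K cells, and PDGFRB 91.4 and 686. Both were called higher under all 5 scalings (limma). FAP (113 and 149) was called higher on the deposited scale only (limma). All 3 were below the floor in wild-type and above it in NRAS Q61K cells. DCN did not pass as deposited (216 and 255 normalized counts). COL1A2, a fibroblast collagen chain, was at the minimum in every sample. COL1A1, COL3A1, POSTN and THY1 were below the floor in both lines, as were the smooth muscle members ACTG2, CNN1 and MYH11. Of the endothelial markers 6 of 9 had rows, with a summed level of 508 to 572 in wild-type and 730.1 to 907 in NRAS Q61K samples. KDR was below the floor in wild-type cells and was called higher under all 5 scalings (39.2 and 228 normalized counts), PECAM1 was called higher on the deposited scale only (238 and 316), and ROBO4 was called lower under all 5 (269 and 173, limma). EMCN, TEK and TIE1 were below the floor in both lines, with TIE1 at the minimum in wild-type and at 90.3 in NRAS Q61K cells. Of the leukocyte markers 3 of 8 had rows, with a sum of 276 to 374 in wild-type and 353 to 435 in NRAS Q61K samples. PTPRC was at the minimum in every sample, and ITGAM averaged 112 and 136 normalized counts. ITGB2 was above the floor in both lines (219 and 251) and did not pass as deposited (limma). It was called lower after median rescaling and higher with the replicate number as a block (limma). The part of these marker levels in the members' values was not tested.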

How the data were processed

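Total RNA of 3 samples of each line was measured on the nCounter PanCancer Progression panel, per the labels. The deposited table holds 1 normalized signal per gene and sample, not log-transformed, and the authors' software and its settings are not given in the sources used here. Read from the deposited values, each gene's signal is a count minus a background, held at a minimum of 1 and multiplied by 1 factor per sample (0.898 to 0.903 in wild-type and 1.11 to 1.16 in NRAS Q61K samples). With these factors 100% of gene values between 1.5 and 400 were whole within 0.03, once the background's fraction was allowed for. Raw counts are known only up to a constant, so no count model was used. The 30 housekeeping genes were named from the panel's known set and had geometric means of 728 to 733 in every sample as deposited. All 770 gene rows matched RefSeq's table for GRCh38.p14, 755 by current and 15 by older symbol.

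Genes entered the fit if their average over the 6 samples exceeded 31.7 plus 2 times 49.0, the mean and SD of the 8 negative control probes. They were fitted with limma 3.58.1 in R 4.3.3 (lmFit, eBayes) on log2(value + 1), NRAS Q61K minus wild type, 2-sided, with Benjamini-Hochberg adjustment over 454 genes. Folds refer to this scale, on which changes of low genes come out too small. With 1 line not above the floor, the fold is a bound computed against it. The fit was also run on simulated data with the same relative spread for every gene and no scaling shift between lines. That run does not bear on the choice of scaling, and its outcome is not given here. Total counts per sample and the number of samples limit precision, with a median coefficient of variation of 3.48% in wild-type and 3.64% in NRAS Q61K samples. Alternatives were the sample factors left out, median rescaling, quantile normalization, a pseudocount of 20, no floor, each sample left out, a replicate block and, added after seeing the data, scaling to the 4 brightest positive control probes.

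The members and lists were chosen with earlier results of these data known. The named genes were the members, the 3 genes of each list with the smallest adjusted p among those that passed, all genes of lists with 5 or fewer tested, and the 3 nearest profiles to the highest and the lowest member. The marker genes were named after their values were seen. Results for 1 further list and for some other genes are not reported here. Deviations of same-numbered samples from their line's mean correlated at 0.216, 0.053 and 0.066 over genes, so the numbers were not taken to pair samples.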

Additional observations from a re-analysis of the deposited data

How the results depend on the processing

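The 4 higher and 2 lower members without overlap stayed 4 and 2 under every alternative run, and no member changed sign. Over the fits that left out 1 sample, GSN had log2 differences of 2.52 to 2.56, FHL1 2.50 to 2.55, WWTR1 1.60 to 1.62, ADD1 0.61 to 0.62, NF2 -1.10 to -1.04 and MYLK -1.53 to -1.45. The actin filament list kept its counts under every alternative.

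The scaling between samples moved the counts over all genes, from 282 higher and 95 lower as deposited to 175 and 160 without the sample factors, 150 and 206 after median rescaling, 156 and 199 after quantile normalization and 181 and 143 under positive control scaling. The contractile list went from 2 higher and 1 lower to 1 and 3 under the first 3 of these and to 1 and 2 under positive control scaling. In the same order, the log2 difference of TPM2 turned to -0.13, -0.25, -0.14 and -0.078.

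Leaving out 1 sample at a time gave 258 to 284 higher and 91 to 97 lower genes, and 1 to 2 lower contractile genes (2 without NRAS Q61K replicate 1, where SRF was added). With the replicate number as a block 299 genes were higher and 93 lower, and neither list count changed. The numbers were not taken to pair samples. The low levels of ACTG2, CNN1 and MYH11 limit what can be said of them to being below the floor.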
